A study of Sorghum bicolor with 12 samples.

Results

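Dw1 (Sobic.009G229800), Dw2 (Sobic.006G067700) and Dw3 (Sobic.007G163800) are the sorghum dwarfing genes whose recessive alleles were combined by breeders to shorten the stem. They were taken by their identifiers, and all 3 had a locus naming that gene alone in each section of the deposited table, among 32685 gene-naming loci in the developmental section and 33391 in the water-limiting section. The tissue was the middle stem internode of field-grown plants of the sweet sorghum hybrid CSH22SS, the same cultivar in every group. The stage series held booting (the panicle still enclosed in the flag-leaf sheath), the milky stage of grain filling and physiological maturity. Groups Ds1, Ds2 and Ds3 were booting-stage internodes, listed under water-limiting conditions and set against booting. What separates Ds1 from Ds2 and Ds3, and which alleles of the dwarfing genes the hybrid carries, the labels do not say. The values therefore do not say whether the transcripts encode working protein.

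The 3 genes act at different steps of stem elongation, as known from height genetics. Dw3 encodes an ABCB-type membrane transporter that moves auxin out of cells, the sorghum counterpart of maize Brachytic2. Dw2 encodes an AGC-family protein kinase, a family whose members include regulators of auxin transport. Dw1 encodes a protein of unknown biochemical activity that promotes cell proliferation in the internode and has been placed in brassinosteroid signalling. Loss of any of them gives shorter internodes.

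Levels are FPKM, fragments scaled to transcript length and library size, so genes can be set side by side within a column. Groups within a section were compared on the deposited scale. That unit alone does not make them comparable where the makeup of the columns differs. The authors deposited 1 value per group for the 2 libraries combined. No value below has a replicate error, no test was possible, and read depth is unknown. Column totals were 569515 to 597179 FPKM in the developmental section. In the water-limiting section they were 885374 FPKM in Ds1, 682190 in Ds2 and 647608 in Ds3, against 477138 in booting. The 10 most abundant loci held 29.8%, 22.8% and 20.6% of these totals in Ds1, Ds2 and Ds3, against 6.51% in booting. The internode label could not be checked against marker genes, because the gene table used as a reference matched 0 of 34129 identifiers. In bulk tissue, fewer cells expressing a gene and less of its RNA per cell cannot be told apart.

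All 3 genes were transcribed in every group, but in Ds1 and Ds2 they parted: the auxin transporter and kinase genes were above booting while Dw1 was below it. In Ds3 Dw2 was above booting, Dw1 below it and Dw3 near it. Dw3 read 27.2 FPKM in Ds1, 27.6 in Ds2 and 6.24 in Ds3, against 4.87 in booting. Ds1 and Ds2 thus lay 5.58 and 5.66 times above booting, and Ds3 lay 1.28 times above it. Dw2 read 50.4 FPKM in Ds1, 59.0 in Ds2 and 40.3 in Ds3, against 14.4 in booting, which is 3.50, 4.10 and 2.80 times the booting level. Each Ds group was high for this kinase gene, with Ds2 the highest and Ds3 the lowest among them. Dw1 read 5.13 FPKM in Ds1, 5.36 in Ds2 and 6.28 in Ds3, against 12.2 in booting, or 0.421, 0.439 and 0.514 times booting. The Ds groups lay close together for Dw1, all well under the booting value.

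**Figure D1:**
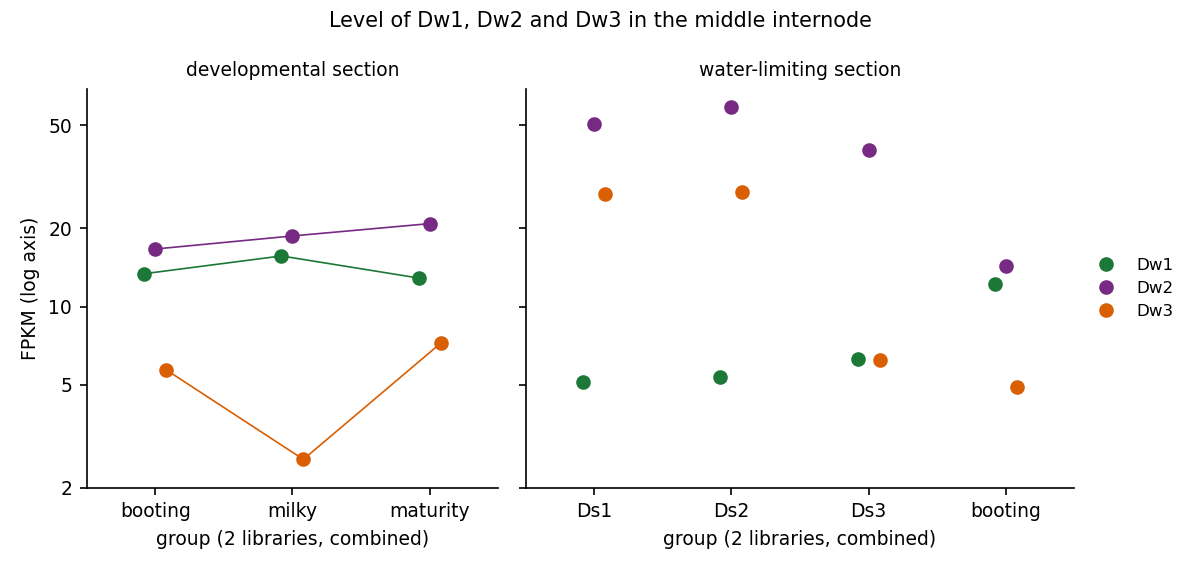
FPKM (log axis) of Dw1, Dw2 and Dw3 in each group, in the separately scaled developmental (left) and water-limiting (right) sections; each point is the authors' single value for 2 combined libraries, so there are no error bars, and points are set slightly apart sideways. Dw2 and Dw3 lie above and Dw1 below booting in Ds1 and Ds2, and Dw3 stands at 6.24 FPKM in Ds3. In the stage series the lowest point is Dw3 at milky, with 2.57 FPKM.

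The order of the genes changed with these shifts. In booting it was Dw2, Dw1 and Dw3 from high to low. In Ds1 and Ds2 it was Dw2, Dw3 and Dw1. In Ds3 Dw2 led and Dw1 and Dw3, at 6.28 and 6.24 FPKM, were level. With no spread between libraries, no step of these orders could be tested. Among the 17691 gene loci that averaged 1 FPKM or more in the water-limiting section, the level of Dw3 lay at percentile 77.3 in Ds1, 79.1 in Ds2 and 40.5 in Ds3, against 32.3 in booting. Dw2 lay at percentiles 88.0, 91.4 and 85.9 in Ds1, Ds2 and Ds3, against 61.4 in booting. Dw1 lay at percentiles 35.9, 37.0 and 40.7 in Ds1, Ds2 and Ds3, against 56.5 in booting. The auxin transporter gene thus passed from the lower part of the expressed range in booting to the upper part in Ds1 and Ds2, and Dw1 the other way.

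Ratios between genes within one column do not depend on how that column was scaled. The ratio of Dw2 to Dw1 was 9.81 in Ds1, 11.0 in Ds2 and 6.42 in Ds3, against 1.18 in booting. The ratio of Dw3 to Dw1 was 5.30 in Ds1, 5.14 in Ds2 and 0.994 in Ds3, against 0.399 in booting. The ratio of Dw2 to Dw3 was 1.85 in Ds1, 2.14 in Ds2 and 6.46 in Ds3, against 2.95 in booting. Relative to Dw1, both other genes were therefore several times more abundant in Ds1 and Ds2 than in booting, whatever the column totals. Between themselves, Dw2 and Dw3 were closer to each other in Ds1 and Ds2 than in booting, and further apart in Ds3.

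**Figure D2:**
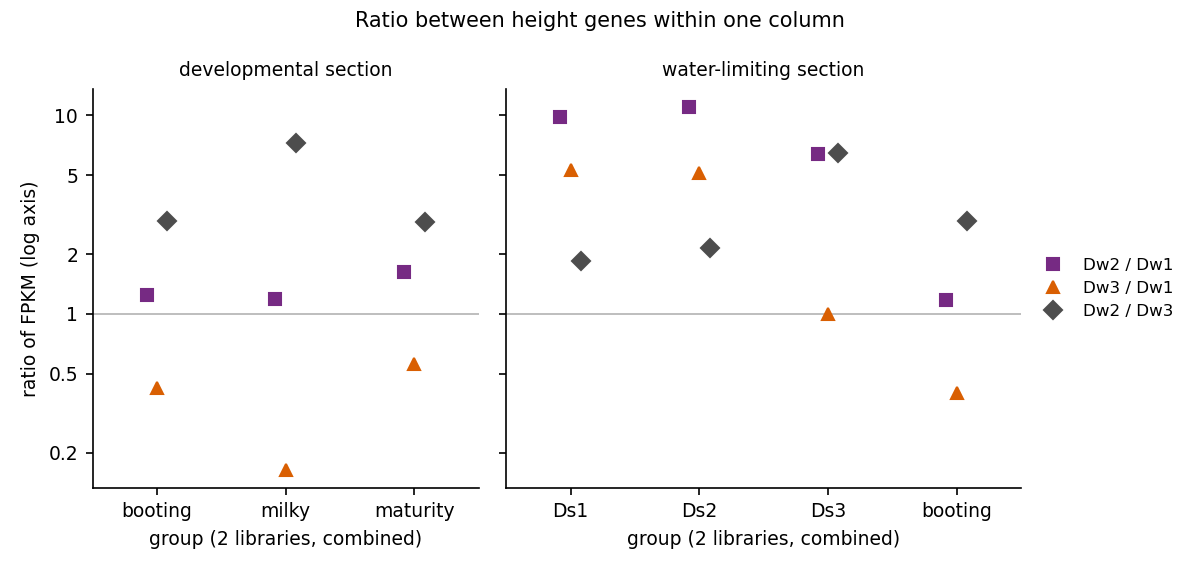
Ratio of FPKM (log axis) between pairs of the height genes within each column; the line marks equal levels, and each point comes from 1 combined value per gene and group. Dw2 / Dw1 is 6.42 or more in the Ds groups and 1.62 or less in all other columns, while Dw3 / Dw1 is above 5 only in Ds1 and Ds2.

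Changes were also expressed as log2 ratios of FPKM + 1, a scale that understates the change of low genes. A locus counted as past the size rule at a ratio of 4 or more on this scale, with at least 10 FPKM in the higher group, and a ratio of 2 was used as a milder measure. In Ds1 against booting, 1 of 3 members, Dw3, passed the ratio of 4 and all 3 passed the ratio of 2. Of 10320 gene loci, 13.9% passed the ratio of 4 and 38.4% the ratio of 2. With a pseudocount of 5, Dw1 read -0.76 in Ds1 and 2 members passed the ratio of 2. In Ds2 against booting, again 1 of 3 passed the ratio of 4 and all 3 the ratio of 2, where 15.3% and 39.6% of 10336 loci did so. Dw1 in Ds2 no longer passed the ratio of 2 with a pseudocount of 5 at -0.73, under median-of-ratios scaling at -0.95 or under quantile normalization at -0.98, which left 2 members past it. In Ds3 against booting, 0 of the 2 members with at least 10 FPKM passed the ratio of 4 and 1, Dw2, the ratio of 2, where 13.6% and 37.3% of 10276 loci did so. Changes of this size were thus common among all genes in the Ds groups, and those of the height genes were not rare.

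The log2 change of Dw3 was 2.26 in Ds1, 2.28 in Ds2 and 0.30 in Ds3, all minus booting, which placed it at percentiles 94.8, 94.99 and 63.8 of change over the 17691 loci. For Dw2 the changes from booting were 1.74, 1.96 and 1.42, at percentiles 91.6, 93.4 and 89.5. For Dw1 they were -1.11, -1.05 and -0.86, at percentiles 15.1, 18.4 and 21.7. The median change of all these loci was -0.05 in Ds1, -0.08 in Ds2 and -0.05 in Ds3. Many of the 17691 loci were below 10 FPKM, where this scale understates changes, so ranks among them can look more extreme. Of the 10320 loci with at least 10 FPKM in the higher group, 926 were higher by a ratio of 4 in Ds1 than in booting. Scaling the columns by the median of ratios moved every change from booting by a constant of about 0.11 in Ds1, 0.12 in Ds2 and 0.09 in Ds3 before the pseudocount, and turned no direction of the 3 genes. Under that scaling Dw2 in Ds2 reached 2.08 and passed the ratio of 4, and with a pseudocount of 5 Dw3 read 1.71 in Ds1 and 1.72 in Ds2 and no longer passed it. The Ds comparisons with booting share its libraries, so they do not count as separate evidence.

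Among the Ds groups, Dw3 stood furthest apart. It read 6.24 FPKM in Ds3 against 27.6 in Ds2, a log2 change of -1.98, and 38 of the 17691 loci had a change as low or lower. In Ds3 against Ds1, which shares the single Ds3 value, its change was -1.96, with 523 loci as low or lower. Both values came just short of the ratio of 4, which they passed with a pseudocount of 0.1 at -2.13 against Ds2 and -2.11 against Ds1. Dw2 read 40.3 FPKM in Ds3 against 59.0 in Ds2, a log2 change of -0.54 at percentile 8.68. Against Ds1, at 50.4 FPKM, the change of Dw2 in Ds3 was -0.31. Dw1 was 0.19 above Ds2 and 0.25 above Ds1 in Ds3 on the log2 scale, opposite in sign to the other members.

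Of the 2 members that had at least 10 FPKM in these comparisons, Dw2 and Dw3, 0 passed the ratio of 4 in Ds3 against Ds2 and 1, Dw3, the ratio of 2. Of 8938 loci, 0.515% passed the ratio of 4 and 4.26% the ratio of 2. In Ds3 against Ds1 the members' counts were the same, and 5.18% and 19.1% of 9441 loci passed. In Ds2 against Ds1 neither passed either ratio, where 3.25% and 12.0% of 9145 loci did so. In Ds2 against Ds1 the log2 changes were 0.22 for Dw2, 0.05 for Dw1 and 0.02 for Dw3, so these columns were nearly level for the height genes.

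**Figure D3:**
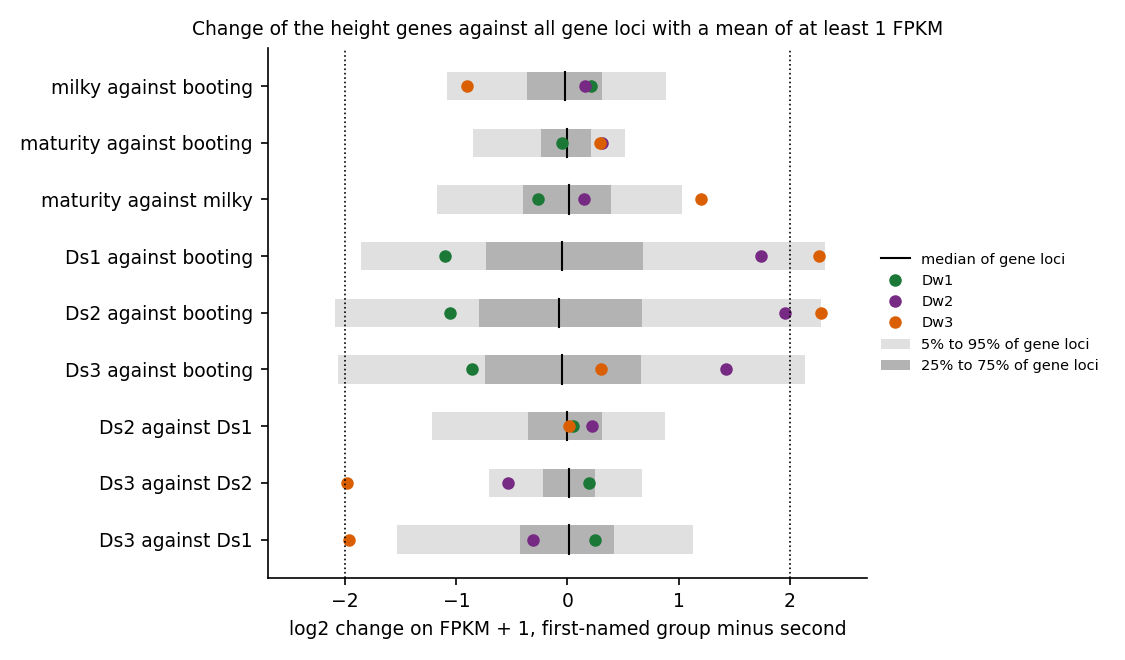
Log2 change on FPKM + 1 of Dw1, Dw2 and Dw3 (coloured points) in each comparison, first-named group minus second, over the spread of all gene loci that averaged 1 FPKM or more (grey bars from the 5th to the 95th and the 25th to the 75th percentile, black line at the median); dotted lines mark a ratio of 4. Dw3 lies outside the light bar in Ds3 against Ds2 at -1.98, in Ds3 against Ds1 and in maturity against milky, and Dw1 and Dw2 lie inside it in every comparison. For Dw3 the Ds3 comparisons share a single value of 6.24 FPKM, and the stage comparison uses a milky value of 2.57 FPKM.

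In the stage series the 3 genes were much steadier, apart from a low milky value of the auxin transporter gene. Dw3 read 5.70 FPKM in booting, 2.57 in milky and 7.21 in maturity. Milky was low, and maturity was 1.27 times booting. The log2 change was -0.91 in milky against booting, 0.29 in maturity against booting and 1.20 in maturity against milky. In that order these placed Dw3 at percentiles 7.37, 82.7 and 96.6 of change among 16795 loci. At under 10 FPKM in every stage, Dw3 could not count under the size rule. Dw2 read 16.7 FPKM in booting, 18.7 in milky and 20.9 in maturity, highest at maturity by 1.25 times booting. Dw1 read 13.4 FPKM in booting, 15.7 in milky and 12.9 in maturity, highest at milky by 1.17 times booting. In stage order the ratio of Dw2 to Dw3 was 2.92, 7.27 and 2.89, and that of Dw2 to Dw1 was 1.25, 1.19 and 1.62.

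Of the 2 members with at least 10 FPKM, Dw1 and Dw2, 0 passed the ratio of 4 or the ratio of 2 in any stage comparison. Over all loci, 1.96% and 9.63% of 10244 passed these ratios in milky against booting. In maturity against booting 0.952% and 3.49% of 9976 passed, and in maturity against milky 2.15% and 13.2% of 10184. Without the minimum of 10 FPKM, Dw3 in maturity against milky would pass the ratio of 2.

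The same booting libraries were processed by the authors for each section separately, which gives the only repeat measure of these genes. Dw1 read 12.2 FPKM in the water-limiting and 13.4 in the developmental section, Dw2 14.4 and 16.7, and Dw3 4.87 and 5.70. The ratios were 0.912, 0.863 and 0.855, beside a median of 0.863 over 14379 genes. The within-column ratios of booting in the water-limiting and developmental sections were 1.18 and 1.25 for Dw2 to Dw1 and 0.399 and 0.426 for Dw3 to Dw1. Over these genes the log2 difference of booting between sections had a standard deviation of 0.23. The largest stage changes of Dw1 and Dw2, -0.26 and 0.31, were close to that in size, though made within 1 section. The gap between sections measures the processing and not the variation between plants.

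The genes also differed in how many others shared their pattern, measured as the root mean square difference of 5 log2 changes from booting (milky, maturity, Ds1, Ds2 and Ds3) among 14378 other genes. Within a difference of 0.5 there were 2881 genes for Dw1, 477 for Dw2 and 10 for Dw3. The pattern of Dw3, high in Ds1 and Ds2, near booting in Ds3 and low at milky, was thus the least common of the 3 by this measure. A fixed difference tends to hold fewer genes around large changes than around small ones. It also takes in low genes, whose changes this scale understates. How far the counts reflect change size and level was not tested. Dw2 and Dw3 lay 0.74 apart, whereas Dw1 lay 2.12 from Dw2 and 2.25 from Dw3. Many other genes were about as close, with 1452 within 0.75 of Dw2 and 211 within 0.75 of Dw3. Nearest to Dw1 was Sobic.004G280200, at 0.064, with 0.647, 0.678 and 1.12 FPKM in Ds1, Ds2 and Ds3, against 2.53 in booting. These levels are near the floor, where adding 1 FPKM shrinks a change. In plain FPKM this gene fell by a larger factor in each Ds group than Dw1, which read 5.13 in Ds1 against 12.2 in booting. Nearest to Dw2 was Sobic.006G201100, at 0.116, with 24.0, 35.0 and 22.5 FPKM in Ds1, Ds2 and Ds3, against 7.19 in booting. Nearest to Dw3 was Sobic.003G400200, at 0.385, with 59.6, 33.7 and 14.9 FPKM in Ds1, Ds2 and Ds3, against 8.07 in booting. The sources used here do not annotate these 3 identifiers. The changes share booting, so likeness describes these columns only.

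**Figure D4:**
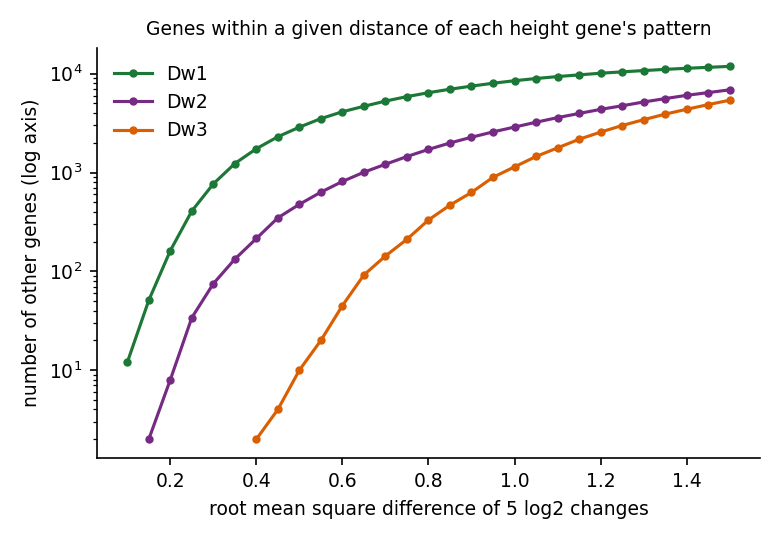
Number of other genes (log axis) whose 5 log2 changes from booting lie within a given root mean square difference of those of Dw1, Dw2 or Dw3, out of 14378, each curve starting where the count leaves 0. At a difference of 0.5 the curves stand at 2881 genes for Dw1, 477 for Dw2 and 10 for Dw3.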

How the data were processed

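RNA from 12 libraries in 6 groups of 2 was measured. The labels do not say whether the 2 libraries of a group came from separate plants. The authors deposited FPKM values, with 1 value per group, in a developmental and a water-limiting section that were scaled apart, and comparisons were made within a section only. The unit is the one in the deposited table's name. Booting is listed in each section, and its column in the water-limiting section is likewise the authors' FPKM. Libraries were made with a stranded total RNA kit, per the labels' protocols. The submitters' processing notes name Cuffdiff, HISAT2 2.0.5, cutadapt 1.8.1 and Bowtie2 2.2.9, without role or order. The genome build and the handling of reads that map to several genes are not given in the sources used here, so reads shared with related transporter or kinase genes cannot be assessed.

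From these values, level ratios, log2 changes on FPKM + 1, percentiles and counts by the size rule were computed with Python 3.11.15, numpy 2.4.6 and pandas 2.3.3, and the counting was tested on simulated data. With 1 value per group no model was fitted, and no library could be left out. Gene lists of auxin, brassinosteroid and gibberellin functions, cell expansion and cell types, defined by product name, could not be filled, because the reference gene table (assembly Sorghum_bicolor_NCBIv3) matched none of the identifiers. The members, the size rule and the comparisons were chosen with earlier results of these data known, and the ratio of 2 was added after seeing the values. The genes named beside the members are, by rule, the nearest to each member in pattern, with a locus of their own and an average of 1 FPKM or more in each section. Gene names follow the sorghum literature, since the table gives identifiers only.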

Additional observations from a re-analysis of the deposited data

How the results depend on the processing

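Pseudocounts of 0.1 and 5, no minimum of 10 FPKM, quantile normalization and a median-of-ratios scaling were tried on the 27 log2 changes of the 3 genes (3 genes in 9 comparisons). Neither scaling turned a sign; the pseudocounts and the minimum cannot turn one by construction. With a pseudocount of 0.1, Dw2 in Ds2 against booting passed the ratio of 4 at 2.03, and Dw3 passed it in Ds3 against Ds1 at -2.11 and in Ds3 against Ds2 at -2.13, so that 2, 1 and 1 members passed. With a pseudocount of 5, Dw3 read 1.71 in Ds1 and 1.72 in Ds2 against booting and 0 members passed in either. The median-of-ratios scaling gave 2.08 for Dw2 in Ds2 against booting and -2.01 for Dw3 in Ds3 against Ds2, and so 2 and 1 members passed. Quantile normalization gave 2.03 for Dw2 in Ds2, and 2 members passed. The ratio of 2 was lost by Dw1 in Ds1 with a pseudocount of 5, and in Ds2 with that pseudocount and under each scaling. The smaller pseudocount raises and the larger lowers every ratio by construction; for the scalings the cause was not tested.

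With a pseudocount of 5 the loci past the ratio of 4 numbered 93 in place of 201 in milky against booting, 42 in place of 95 in maturity against booting and 92 in place of 219 in maturity against milky. Against booting they numbered 806 in place of 1430 in Ds1, 839 in place of 1578 in Ds2 and 773 in place of 1393 in Ds3. They numbered 137 in place of 297 in Ds2 against Ds1, 14 in place of 46 in Ds3 against Ds2 and 245 in place of 489 in Ds3 against Ds1. The share of higher loci among those of Ds2 against booting was then 65.9%, in place of 54.6%. No paired analysis was possible because the table holds 1 combined value per group, which also kept any library from being left out. Depth is unknown, so the precision of the low values, Dw3 above all, cannot be given.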

Other observations

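The neighbours of the height genes were taken as 3 identifiers on each side in number order. In Ds1 and Ds2 each height gene lay outside the range of its neighbours with at least 10 FPKM. In the other groups some did and some did not. In Ds2 against booting, the 3 neighbours of Dw1 with at least 10 FPKM had log2 changes from 0.26 to 2.11, where Dw1 itself was at -1.05. The 4 such neighbours of Dw2 ran from -1.70 to 0.92, where Dw2 was at 1.96. The 3 such neighbours of Dw3 ran from -0.89 to 1.09, where Dw3 was at 2.28. In Ds1 against booting the ranges were -0.19 to 1.91 near Dw1, -1.16 to 0.37 near Dw2 and -0.58 to 0.56 near Dw3, each on the basis of 3 neighbours. In both comparisons Dw1 lay below, and Dw2 and Dw3 above, all such neighbours of their own. A gene with a large change easily falls outside the range of so few neighbours, so these positions are description only. Which neighbours count also depends on the groups compared. Sobic.009G229700, near Dw1, had 4.23 FPKM in booting and counted through 18.7 in Ds1 and 21.5 in Ds2. In Ds3 against booting Dw3, at 0.30, lay inside the range of its neighbours, -1.04 to 1.74. There Dw1, at -0.86, lay below its 2 such neighbours, at 0.79 and 0.80. Dw2, at 1.42 in Ds3, lay above its 3, at -2.15 to 0.83. In maturity against booting Dw1, at -0.05, lay below its range of 0.33 to 0.69. Dw2, at 0.31, lay just above -0.02 to 0.28 in maturity, and Dw3, at 0.29, lay inside -0.15 to 0.78. In milky against booting the 4 neighbours of Dw3 with at least 10 FPKM ran from -0.68 to -0.01. Dw3, at -0.91, lay below all 4, though with the same sign. In milky Dw1, at 0.21, lay inside its range of 0.11 to 0.50, and Dw2, at 0.16, inside -0.08 to 0.75.

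The summed level of the 3 height genes was 82.7 FPKM in Ds1, 91.9 in Ds2 and 52.8 in Ds3, against 31.5 in booting. Dw1 made up 6.21%, 5.83% and 11.9% of that sum in Ds1, Ds2 and Ds3, against 38.8% in booting.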
